A study of Mus musculus with 12 samples.

Results

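A set of 44 genes of DNA replication and cell division was followed in 12 mouse sarcomas, 16 of them genes of S phase and 28 genes of mitosis. Members were listed by gene symbol, and 43 of the 44 could be read among the 19938 genes that a probeset of the array names alone. The exception was Ccnb1, the B-type cyclin that activates Cdk1 at mitotic entry, which no probeset names alone, so 27 mitosis genes were measured. The tumors were subcutaneous grafts in nude mice under normal diet, taken after 2 to 3 weeks according to their growth, as the labels have it. All cells were of the J2A line, myofibroblasts of C57BL/6 mice deficient for p16, p19 and Vnn1 that had been transformed with an oncogenic Ras. R tumors carried Ras with a mock insert, VR tumors Ras with intact Vnn1, which encodes the pantetheinase vanin-1, and VdR tumors Ras with a catalytically deficient Vnn1. There were 4 tumors in each group, numbered 1, 2, 4 and 5. As far as the sources used here state, the tumors of a group repeat the graft of 1 transformed line and not its derivation, and the p-values measure the spread between such grafts. The paper's methods name 1 day of harvest for all of these tumors, whereas the labels give that range, so the day on which each was taken is not settled.

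Cells copy their DNA in S phase, after cyclin E and Cdk2 release E2F factors from the retinoblastoma protein. Cdc6 loads the Mcm2 to Mcm7 helicase on origins, Cdc45 and the GINS complex turn it on, Pcna clamps the polymerases to DNA, and ribonucleotide reductase, thymidylate synthase and thymidine kinase supply nucleotides. At mitosis Cdk1, the Aurora kinases and Plk1 drive entry, kinetochores and kinesins attach and move chromosomes, the spindle checkpoint holds the cell until all are attached, and the anaphase-promoting complex then ends mitosis. RNA of most of these genes is low in resting cells and rises when cells cycle. In a tumor they are therefore read as markers of how many cells divide, and those cells can be tumor cells or cells of the host.

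The groups of the set are also known for different promoter elements. Many S phase genes carry E2F sites, and many mitosis genes carry a cell cycle homology region (CHR) with nearby CCAAT boxes. Promoters from RefSeq (GRCm38.p6), 300 bases long with 250 before the gene start and 50 from it on, were found for 35 of the 44 members. They were searched on both strands for the CHR (TTTGAA or TTCGAA), an E2F motif (TTCCCGC or TTGGCGC) and the CCAAT box (CCAAT). On the reverse strand a match of the second E2F form can share the letters CCAA with a CCAAT match, as in Mcm7, and both were then counted. A CHR stood in 17 of 22 mitosis promoters (77.3%) and 3 of 13 S phase promoters (23.1%), against 21.7% of all 27025 genes with a promoter in the table. An E2F motif stood in 6 of 13 S phase promoters (46.2%) and 3 of 22 mitosis promoters (13.6%), against 7.79% of all genes. CCAAT boxes were found in both groups, in 69.2% of the S phase and 81.8% of the mitosis promoters, against 41.1% of all. CHR and CCAAT box occurred together in 16 of the 22 mitosis genes (72.7%), in 3 of the 13 S phase genes and in 9.65% of all genes. Among the 13061 genes with a promoter that were tested below, the shares were 16.8% (CHR), 12.1% (E2F), 41.6% (CCAAT box) and 8.07% (CHR and CCAAT box). The E2F share of the mitosis promoters, 13.6%, was thus near that of the genes tested. A match describes the letters of the sequence and does not show a used site.

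**Figure D1:**
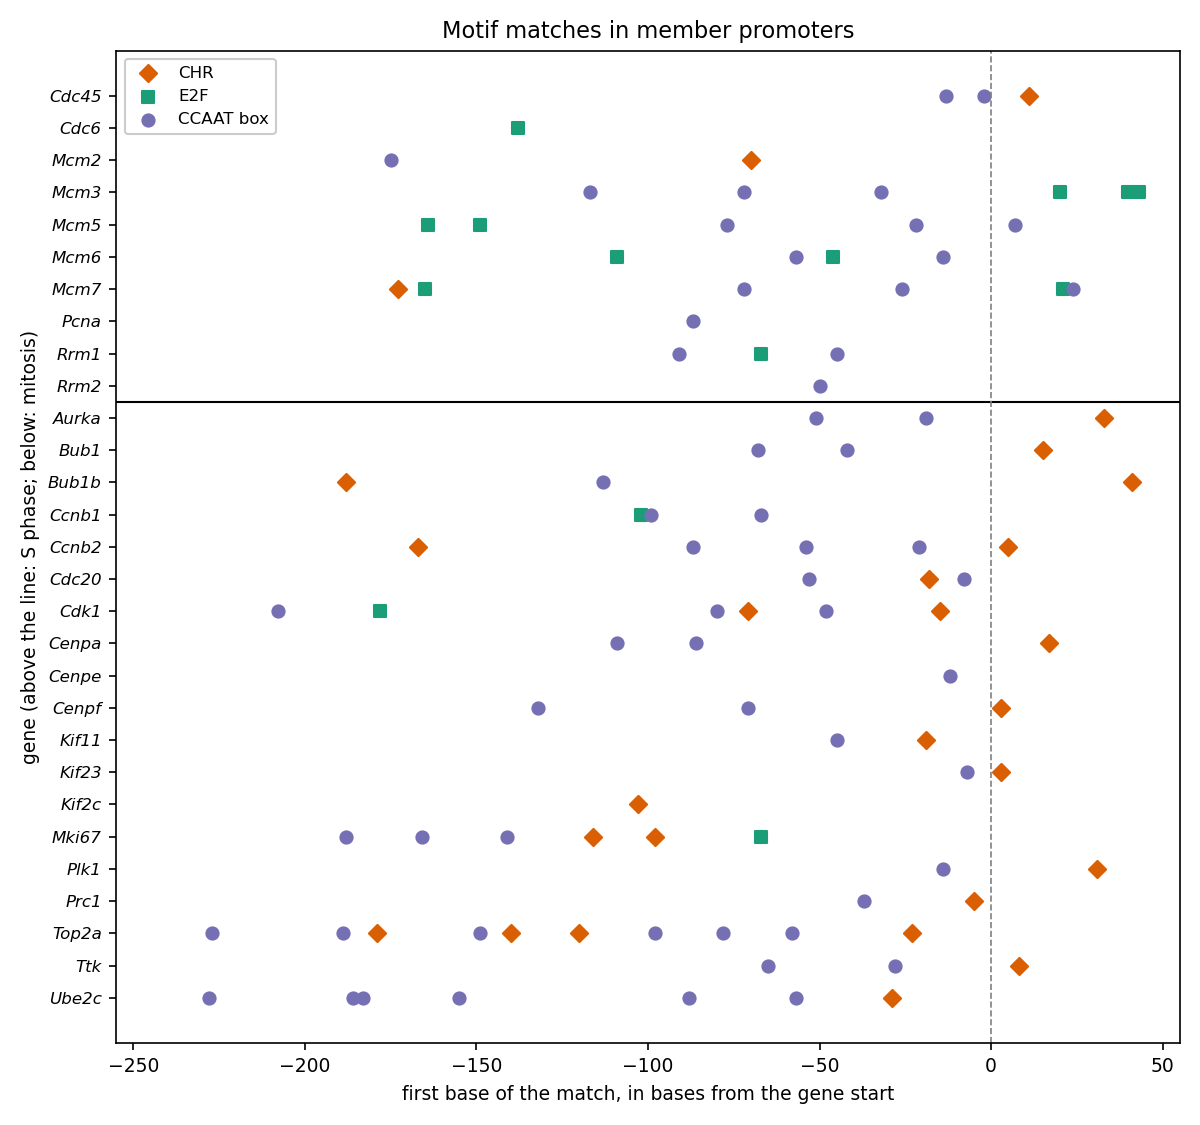
Positions of motif matches in the promoters of the 29 members with at least 1 match, with the first base of each match in bases from the gene start on the horizontal axis and genes on the vertical axis, S phase genes above the line and mitosis genes below. For members with 2 promoters the first is drawn. CHR matches (diamonds) are found in 17 mitosis and 3 S phase genes and E2F matches (squares) in 6 S phase and 3 mitosis genes, counting both promoters where there are 2.

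The next 5 sequences show the elements in mitosis members named below (Cenpa, Ube2c and Cdc20) and in a pair of helicase subunits from S phase. Of these mitosis members, Cenpa and Ube2c passed the test used below and Cdc20 did not. The promoters of Birc5, the other member to pass, and of Tk1 and Ccne1 held no match. Those of Mcm2 and Cdc45 held a CHR and no E2F motif. All 5 sequences printed hold matches and are examples only. Each runs from base -170 to base 30 counted from the gene start, 5′ to 3′ on the strand of the gene, with all matches of the searched motifs in capitals. Cenpa lies at chr5:30666716-30666915 on the plus strand, with CCAAT boxes from bases -109 and -86 and a CHR from base 17. Ube2c lies at chr2:164769759-164769958 on the plus strand, with a CHR from base -29 that follows CCAAT boxes from -155, -88 and -57. Cdc20 lies at chr4:118437314-118437513 on the minus strand, with a CHR from base -18 between CCAAT boxes from -53 and -8. Mcm5 lies at chr8:75109339-75109538 on the plus strand, with E2F motifs from -164 and -149. Mcm6 lies at chr1:128359676-128359875 on the minus strand, with E2F motifs from -109 and -46.
Cenpa: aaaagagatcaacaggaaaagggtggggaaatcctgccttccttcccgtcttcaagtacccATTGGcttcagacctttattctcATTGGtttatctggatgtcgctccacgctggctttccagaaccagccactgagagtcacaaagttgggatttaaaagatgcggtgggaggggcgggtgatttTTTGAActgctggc
Ube2c: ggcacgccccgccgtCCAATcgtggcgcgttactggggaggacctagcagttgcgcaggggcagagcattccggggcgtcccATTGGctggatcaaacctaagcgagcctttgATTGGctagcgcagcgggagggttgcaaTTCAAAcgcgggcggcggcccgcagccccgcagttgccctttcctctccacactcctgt
Cdc20: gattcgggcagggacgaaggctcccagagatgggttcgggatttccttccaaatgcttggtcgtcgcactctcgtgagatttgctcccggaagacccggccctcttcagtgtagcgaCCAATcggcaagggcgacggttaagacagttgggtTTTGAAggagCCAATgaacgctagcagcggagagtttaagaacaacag
Mcm5: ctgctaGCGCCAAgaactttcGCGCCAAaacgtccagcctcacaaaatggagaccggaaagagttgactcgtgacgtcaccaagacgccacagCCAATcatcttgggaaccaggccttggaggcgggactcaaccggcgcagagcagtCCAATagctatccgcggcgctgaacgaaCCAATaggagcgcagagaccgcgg
Mcm6: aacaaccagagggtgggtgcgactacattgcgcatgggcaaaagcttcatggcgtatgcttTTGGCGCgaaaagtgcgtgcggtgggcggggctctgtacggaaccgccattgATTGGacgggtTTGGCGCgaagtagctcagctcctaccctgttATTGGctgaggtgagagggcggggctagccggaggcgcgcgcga

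The arrays were read as log2 values after RMA by the authors. Array medians over all probesets lay between 6.66 and 6.77. Groups were compared with limma over all 12 tumors and 16573 genes above a low-value filter, all 43 measured members among them, and a gene was called at a Benjamini-Hochberg adjusted p under 0.05. Vnn1, the gene of the vectors, lay between 5.53 and 5.83 in R tumors, 11.37 and 11.73 in VdR tumors and 10.54 and 11.26 in VR tumors, as the labels have it. Markers of macrophages, which nude mice keep, differed between the groups: the mean log2 value of 17 of them ranged over 9.13 to 9.45 (R tumors), 10.18 to 10.46 (VdR tumors) and 10.04 to 10.20 (VR tumors). Of these, 16 were called higher in VdR than in R and 13 in VR than in R. Markers of other cells differed as well. In VR against R, 7 of 14 myofibroblast and 3 of 11 endothelial markers were called higher, as were 13.6% of all genes. In VdR against R these counts were 1 and 0, where 6.58% of all genes were called higher. The paper describes RNA of whole tumor mass and the labels RNA of sorted cells, so which cells the arrays read is not settled. In RNA of mixed cells, fewer cells of a type and less RNA per cell cannot be told apart.

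All 43 measured members were expressed above the filter in these tumors, and 3 passed the test in any comparison, all of them genes of mitosis. Against R, Birc5 rose in VR tumors and Cenpa rose in VdR tumors, and for Ube2c the VR tumors read below the VdR tumors. Of the 43 members, 1 was therefore called in each comparison, where 21.1% of all genes were called between VR and R (13.6% higher in VR), 9.38% between VdR and R (6.58% higher in VdR) and 3.44% between VR and VdR (1.67% lower in VR). No S phase gene of 16 was called by limma in any comparison. At an unadjusted p under 0.05, 1 S phase gene passed between VR and R and 2 in each of the other comparisons, where 34.8% of all genes passed between VR and R, 23.1% between VdR and R and 19.2% between VR and VdR. The background counts of higher and lower genes moved with the scaling. Centring, here and below, used the median of each array over the 19938 genes and not over all probesets. For VR against R the counts were 2261 and 1239, but 1575 and 3815 after centring on that median. For VdR against R they were 1090 and 465, 702 and 997 after centring, and 891 and 703 after cyclic loess.

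**Figure D2:**
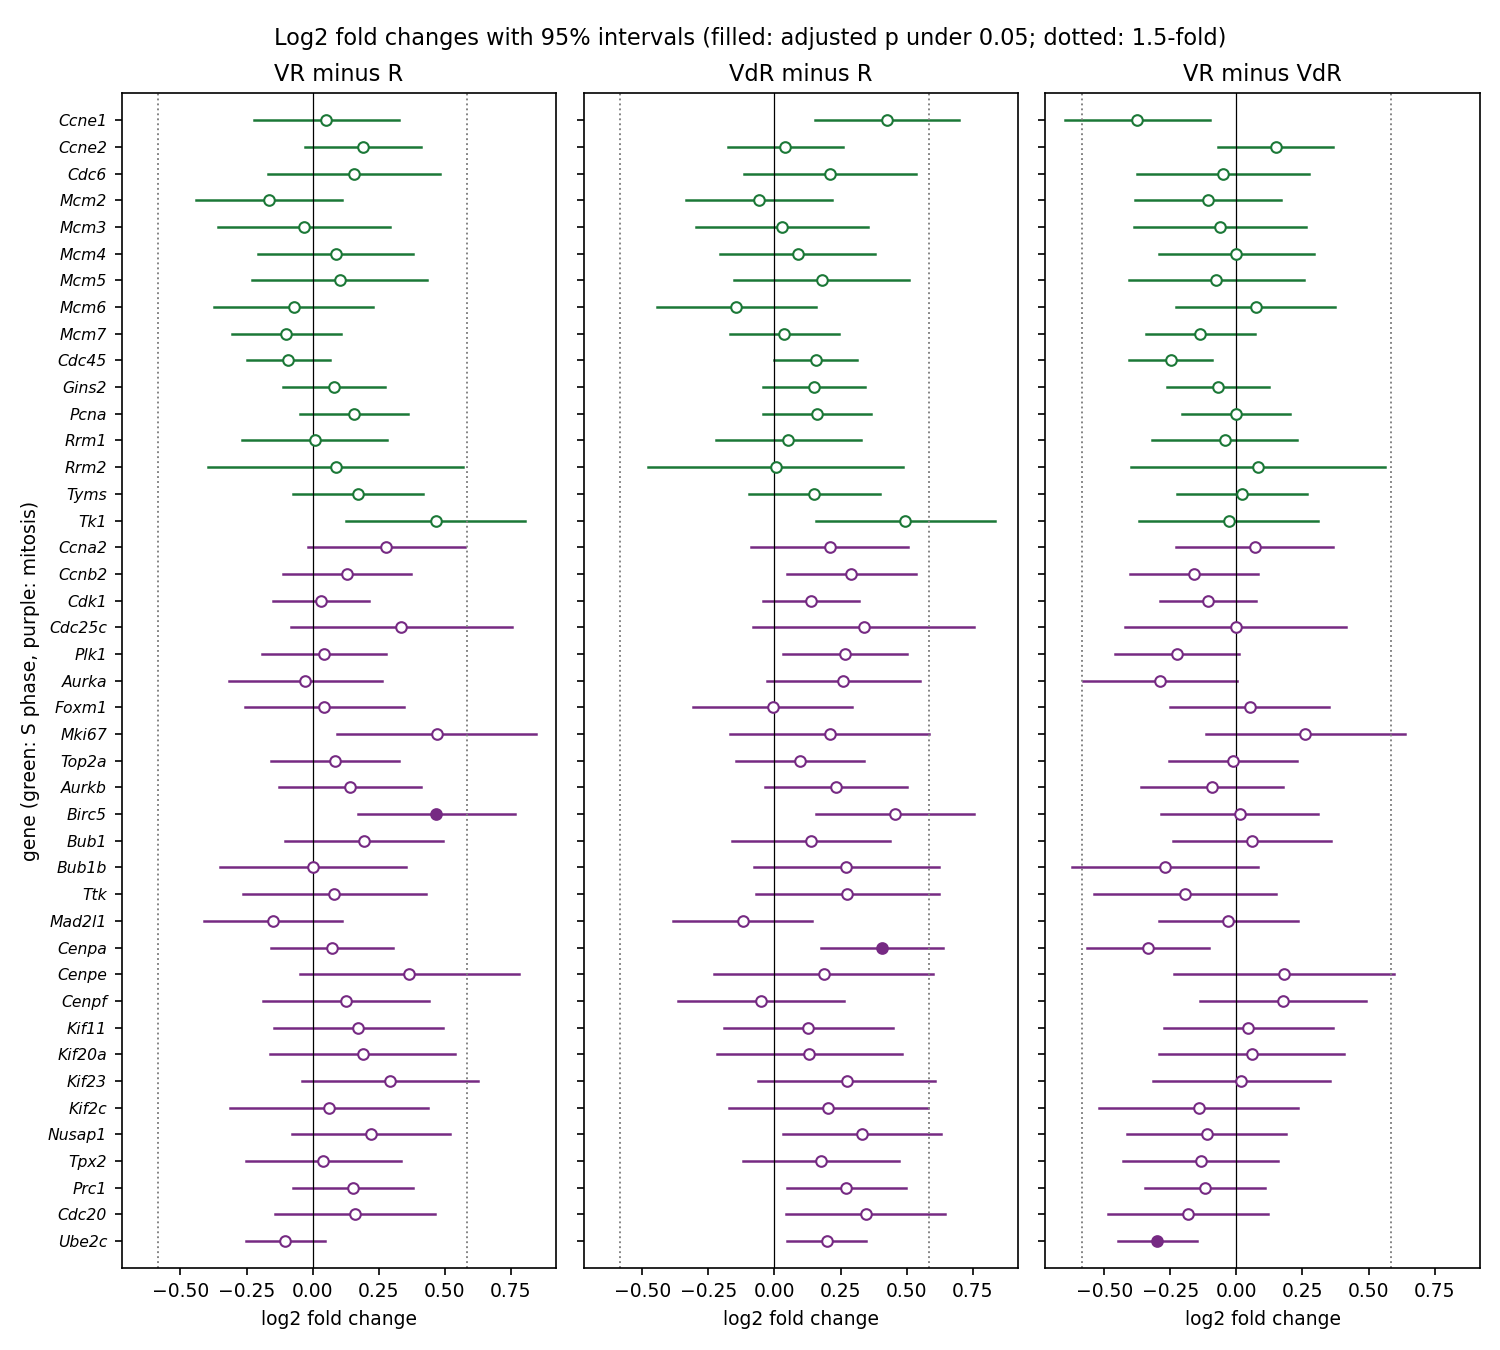
Log2 fold changes of the 43 measured members (vertical axis) in the 3 comparisons, with 95% intervals from limma, S phase genes in green and mitosis genes in purple. Filled points mark the 3 calls at an adjusted p under 0.05 (Birc5, Cenpa and Ube2c), and in the first 2 panels no interval reaches the dotted line of a 1.5-fold lower level.

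Birc5 encodes survivin, the subunit of the chromosomal passenger complex that brings Aurora B to centromeres and the spindle midzone. Its log2 values were 8.29, 8.30, 8.20 and 8.82 in R tumors 1, 2, 4 and 5, and 8.89, 8.98, 8.85 and 8.76 in VR tumors. R tumor 5 alone reached the level of the VR tumors, and the groups overlapped through it. The difference, VR minus R, was 0.47 ± 0.14 (SE), or 1.38-fold (limma, adjusted p = 0.0293). The two-sided exact permutation test over the tumors gave p = 0.0571, where 4 against 4 can reach 0.0286. In VdR tumors Birc5 was 9.03, 9.02, 8.53 and 8.85, a difference of 0.46 ± 0.14 (SE) from R (limma, adjusted p = 0.0569). The call between VR and R was lost without R tumor 1, 2 or 4 or VR tumor 1, 2 or 4, with adjusted p between 0.0596 and 0.0897, and held without each of the other 6 tumors. Without R tumor 5 the difference was 0.61 (adjusted p = 0.00337).

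Cenpa encodes the histone H3 variant that marks centromeres and on which the kinetochore is built. It read 9.43, 9.45, 9.30 and 9.88 in R tumors, 9.93, 9.98, 9.80 and 9.98 in VdR tumors and 9.70, 9.64, 9.54 and 9.49 in VR tumors. The VdR tumors lay above all other tumors except R tumor 5. VdR exceeded R by 0.41 ± 0.11 (SE), or 1.33-fold (limma, adjusted p = 0.0319; two-sided exact permutation test, p = 0.0571). Every VR tumor was below every VdR tumor, by 0.33 ± 0.11 (SE) on average, which was not called (limma, adjusted p = 0.104; exact permutation test, p = 0.0286, the smallest possible). The call against R was lost without R tumor 1, 2 or 4 or VdR tumor 1, 2 or 5, with adjusted p between 0.0692 and 0.0954, and after centring on the array median (adjusted p = 0.067).

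Ube2c is the ubiquitin-conjugating enzyme that works with the anaphase-promoting complex to destroy cyclin B and securin. Its level varied least among the VdR tumors, where it was 10.56, 10.61, 10.59 and 10.63. The R tumors had 10.38, 10.31, 10.31 and 10.59, and the VR tumors 10.41, 10.33, 10.21 and 10.23. VR and VdR did not overlap, and R tumor 5 sat among the VdR tumors. Ube2c was lower in VR than in VdR, with a log2 difference of -0.30 ± 0.07 (SE), a 1.23-fold change (limma, adjusted p = 0.0374; exact permutation test, p = 0.0286). The adjusted p was above 0.05 without R tumor 1, without any 1 VdR tumor and without VR tumor 2, 4 or 5, up to 0.104, while the difference stayed between -0.34 and -0.27.

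**Figure D3:**
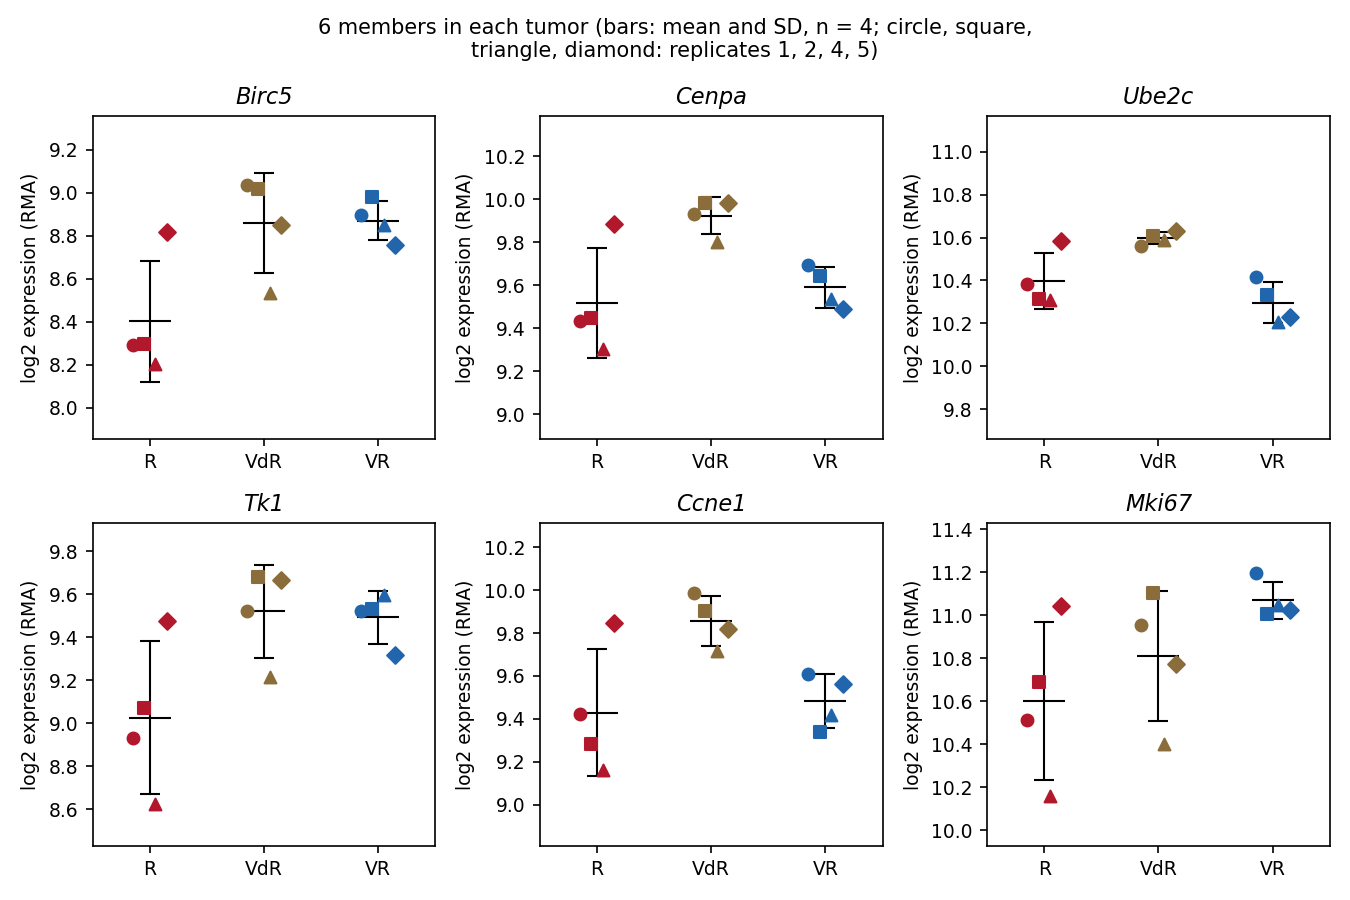
Log2 expression (vertical axis) of Birc5, Cenpa, Ube2c, Tk1, Ccne1 and Mki67 in each tumor of the R, VdR and VR groups, with bars for the mean and SD of 4 tumors; every panel spans 1.5 log2 units. R replicate 5 (diamond) lies above the other R tumors for each gene, and for Cenpa, Ube2c and Ccne1 all VR tumors lie below all VdR tumors.

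Among the S phase genes, the cyclins E start the phase by activating Cdk2. Ccne1 was 9.42, 9.29, 9.16 and 9.85 in R tumors, 9.99, 9.90, 9.72 and 9.82 in VdR tumors and 9.61, 9.34, 9.42 and 9.56 in VR tumors. All VdR tumors were above all VR tumors, by 0.37 ± 0.13 (SE) on average (limma, adjusted p = 0.12; exact permutation test, p = 0.0286). Against R the VdR difference was 0.43 ± 0.13 (SE), with an adjusted p of 0.0532 by limma. Ccne2 did not show this order. It ranged over 7.92 to 8.23 among R, 7.86 to 8.30 among VdR and 8.09 to 8.32 among VR tumors, and its largest difference was 0.19 ± 0.10 (SE) for VR against R (limma, adjusted p = 0.2).

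The genes of origins and the helicase were close between groups. For the 9 of them (Cdc6, Mcm2 to Mcm7, Cdc45 and Gins2), the log2 differences ran from -0.17 to 0.16 for VR against R, with a median of -0.03, and from -0.14 to 0.21 for VdR against R, with a median of 0.09. Mcm2, a helicase subunit much used as a marker of cells licensed to replicate, had means of 10.23 ± 0.28 in the R group, 10.17 ± 0.19 in the VdR group and 10.07 ± 0.09 in the VR group (SD, n = 4 each). Its VR minus R difference of -0.17 had a 95% interval from -0.44 to 0.11. Cdc45, which activates the helicase, was singled out after its values were seen, since its groups did not overlap: it was 8.95, 9.08, 8.87 and 9.02 among VdR and 8.81, 8.67, 8.77 and 8.67 among VR tumors (limma, adjusted p = 0.0798). Pcna, the sliding clamp, was near 12 in every group, with means of 11.90 ± 0.18 in R tumors, 12.06 ± 0.14 in VdR tumors and 12.06 ± 0.09 in VR tumors (SD, n = 4).

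Of the genes of nucleotide supply, Tk1 and Rrm2 varied most. Tk1, the thymidine kinase of S phase, was 8.93, 9.07, 8.62 and 9.48 in R tumors, 9.52, 9.68, 9.22 and 9.66 in VdR tumors and 9.52, 9.53, 9.60 and 9.32 in VR tumors. Only R tumor 5 reached into the range of the other groups. The differences from R were 0.47 ± 0.16 (SE) for VR (limma, adjusted p = 0.051) and 0.50 ± 0.16 (SE) for VdR (adjusted p = 0.0685), and a second Tk1 probeset gave 0.41 and 0.52. Rrm2, the regulated subunit of ribonucleotide reductase, had the largest SD of the set over the 12 tumors, 0.33. Its lowest and highest values were 9.71 and 10.68 among R, 9.49 and 10.28 among VdR and 9.97 and 10.51 among VR tumors, and the group means lay within 0.09 of each other. Rrm1 and Tyms, the other subunit and thymidylate synthase, were not called.

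Of the mitosis genes beyond the 3 called, Mki67 had the largest VR minus R difference of the set, level with Birc5 and Tk1. It encodes the Ki-67 protein of the chromosome surface, the common stain for cycling cells. Its values were 10.51, 10.69, 10.16 and 11.04 in R tumors, 10.96, 11.10, 10.40 and 10.77 in VdR tumors and 11.20, 11.01, 11.05 and 11.02 in VR tumors. The VR tumors were high and close together, and R tumor 5 stood among them. VR exceeded R by 0.47 ± 0.17 (SE), or 1.38-fold (limma, adjusted p = 0.0741; exact permutation test, p = 0.0857). The difference of VdR from R was 0.21 ± 0.17 (SE) (limma, adjusted p = 0.527). Top2a, the topoisomerase that untangles sister chromatids, differed less, with means of 11.01 ± 0.22 in R tumors, 11.11 ± 0.17 in VdR tumors and 11.10 ± 0.10 in VR tumors (SD, n = 4).

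The entry kinase Cdk1 varied least of all members, with an SD of 0.13 over the tumors and means of 11.45, 11.59 and 11.49 in R, VdR and VR. Cdc25c, the phosphatase that turns Cdk1 on, was 7.59, 7.73, 7.38 and 8.37 in R and 8.20, 8.13, 8.08 and 8.01 in VR tumors, with a difference of 0.34 ± 0.19 (SE) (limma, adjusted p = 0.233). Aurka, the kinase of spindle poles, was 9.90 to 10.30 among VdR and 9.77 to 9.92 among VR tumors, a log2 difference of -0.29 ± 0.13 (SE) (limma, adjusted p = 0.264). Bub1b, a checkpoint kinase-like protein, was 9.76 to 10.20 among VdR and 9.62 to 9.89 among VR tumors, with a difference of -0.27 ± 0.16 (SE) (limma, adjusted p = 0.401). In both genes the lowest VdR tumor, number 4, lay below the highest VR tumor, number 5. Cenpe, the kinetochore kinesin, was 8.60 to 9.61 in R and 9.27 to 9.72 in VR tumors, with a difference of 0.37 ± 0.19 (SE) (limma, adjusted p = 0.193). Cdc20, the activator of the anaphase-promoting complex, was 8.82, 8.91, 8.82 and 9.51 in R and 9.29, 9.51, 9.13 and 9.50 in VdR tumors, with a difference of 0.34 ± 0.14 (SE) (limma, adjusted p = 0.155). The 7 genes of spindle and cytokinesis (Kif11, Kif20a, Kif23, Kif2c, Nusap1, Tpx2 and Prc1) had log2 differences of 0.04 to 0.29 for VR against R and 0.13 to 0.33 for VdR against R, none of them called.

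Over the whole set, most differences from R were positive and small. The median log2 difference over the 43 was 0.09 for VR against R, with 35 above 0, and 0.18 for VdR against R, with 38 above 0. Over all genes tested the medians were -0.01 and 0.00, and 47.0% and 51.1% of genes were above 0. After centring on the array median, the medians over members were 0.00 and 0.11, with 23 and 33 above 0, and those over all genes were -0.10 and -0.07. VR and VdR were compared with the same R tumors, so their shifts are not separate observations. Between VR and VdR the median was -0.05, with 14 of 43 above 0, against 43.6% of all genes. Each of the 43 members had a 95% interval that excluded a level 1.5-fold lower in VR than in R, and likewise in VdR than in R, as had 95.4% and 96.2% of all genes. For VR against VdR this held for 41 members and 96.4% of all genes. A level 1.5-fold higher than in R was excluded for 37 members in VR (89.6% of all genes) and 32 in VdR (92.3%).

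S phase and mitosis genes were then set side by side. The median differences were 0.08 for the 16 S phase genes and 0.13 for the 27 mitosis genes in VR against R, 0.12 and 0.21 in VdR against R, and -0.05 and -0.09 in VR against VdR. For the S phase genes in VR against R the median was -0.00 after centring on the array median, where that of all genes was -0.10. To compare tumors, each gene was expressed relative to its mean over the 12 tumors and averaged within a phase. The S phase score was -0.13, -0.15, -0.27 and 0.29 in R tumors 1, 2, 4 and 5, 0.17, 0.21, -0.21 and 0.07 in VdR tumors and 0.10, -0.09, 0.01 and -0.00 in VR tumors. The mitosis score was -0.19, -0.20, -0.38 and 0.30 in R tumors, 0.17, 0.24, -0.19 and 0.14 in VdR tumors and 0.10, 0.01, -0.05 and 0.04 in VR tumors. Both scores put the tumors in nearly the same order, with R tumor 5 highest and R tumor 4 lowest.

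**Figure D4:**
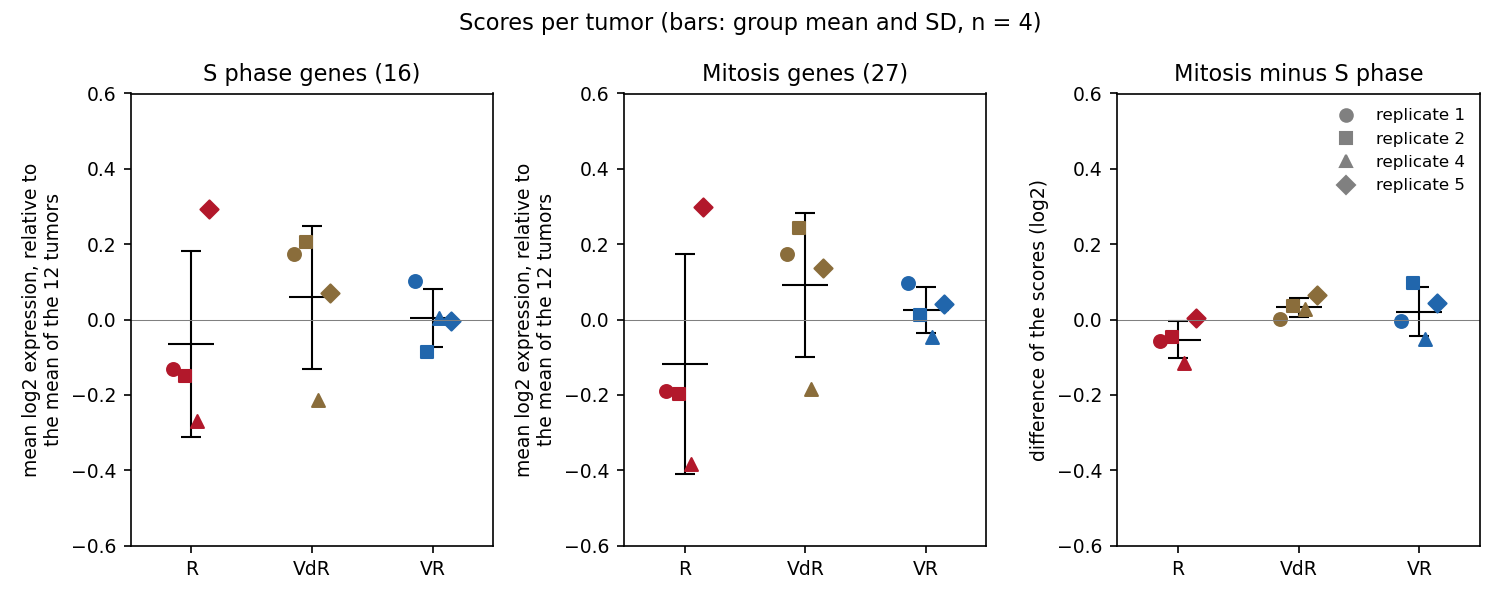
Mean log2 expression of the S phase genes (16), of the mitosis genes (27), both relative to the mean of the 12 tumors, and the difference of the scores, on the vertical axes, for each tumor of the groups R, VdR and VR; bars give the mean and SD of 4 tumors. R replicate 5 is the highest and R replicate 4 the lowest tumor in the first 2 panels, and the VR tumors lie closest together there.

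The groups overlapped in both scores. The mean mitosis score was -0.12 ± 0.29 (SD, n = 4) in R tumors, 0.09 ± 0.19 in VdR tumors and 0.03 ± 0.06 in VR tumors, and the differences from R, 0.21 for VdR and 0.14 for VR, were smaller than the pooled SD between tumors (0.25 and 0.21). The S phase score behaved alike, with differences of 0.12 and 0.07 against pooled SDs of 0.22 and 0.18. The mitosis minus S phase difference was -0.06, -0.05, -0.11 and 0.00 in R tumors, 0.00, 0.04, 0.03 and 0.06 in VdR tumors and -0.00, 0.10, -0.05 and 0.04 in VR tumors. The group means were -0.05 ± 0.05 in R tumors, 0.03 ± 0.03 in VdR tumors and 0.02 ± 0.06 in VR tumors (SD, n = 4). Here the differences from R, 0.086 for VdR and 0.075 for VR, were larger than the pooled SD (0.039 and 0.057), the groups overlapped, and no test was run. Apart from R tumor 5, which lay just above VdR tumor 1, the R tumors were below all VdR tumors in this measure, and R tumors 1 and 4 were also below all VR tumors. Mki67, Top2a and Ccna2 were also left out, since their RNA is present before mitosis too. The mitosis scores then differed from R by 0.21 for VdR and 0.13 for VR, and mitosis minus S phase by 0.091 and 0.058. The lists of other genes described below did not repeat the larger shift of mitosis genes in VR. Their mean scores (replication, then mitosis genes) were -0.07 and -0.08 in R tumors, 0.04 and 0.10 in VdR tumors and 0.03 and -0.01 in VR tumors.

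Within the R and VdR groups, nearly all members put the same tumor lowest. R tumor 5 had the highest value of the R tumors in all 43 measured members, S phase and mitosis alike, whereas 33.0% of all genes had their highest R value there. R tumor 4 had the lowest value in 39 members (23.4% of all genes), and VdR tumor 4 the lowest of the VdR tumors in 41 (26.4%). Of the VR tumors, number 1 was the highest in 27 members (23.5% of all genes). VR tumor 2 was the lowest in 17 (37.7% of all genes), 12 of them among the 16 S phase genes, and VR tumor 4 in another 17 (18.4%), 16 of them among the 27 mitosis genes. R tumor 5 also had the lowest myofibroblast marker mean of all tumors, 10.91 against 11.14 to 11.39 in the other R tumors, and the lowest endothelial mean, 8.82 against 9.08 to 9.38. Acta2, the smooth muscle actin of myofibroblasts, was 11.19 there and 11.92 to 12.29 in the other R tumors. VdR tumor 4 had the highest macrophage marker mean of the series, 10.46, and the highest skeletal muscle marker mean, 9.26, against 6.60 to 8.70 in the other VdR tumors. Skeletal muscle markers were also high in R tumors 2 and 5 (9.09 and 8.34), VdR tumor 2 and VR tumor 2 (8.37). The part of these cells and of the day of harvest in the order of the tumors was not tested.

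**Figure D5:**
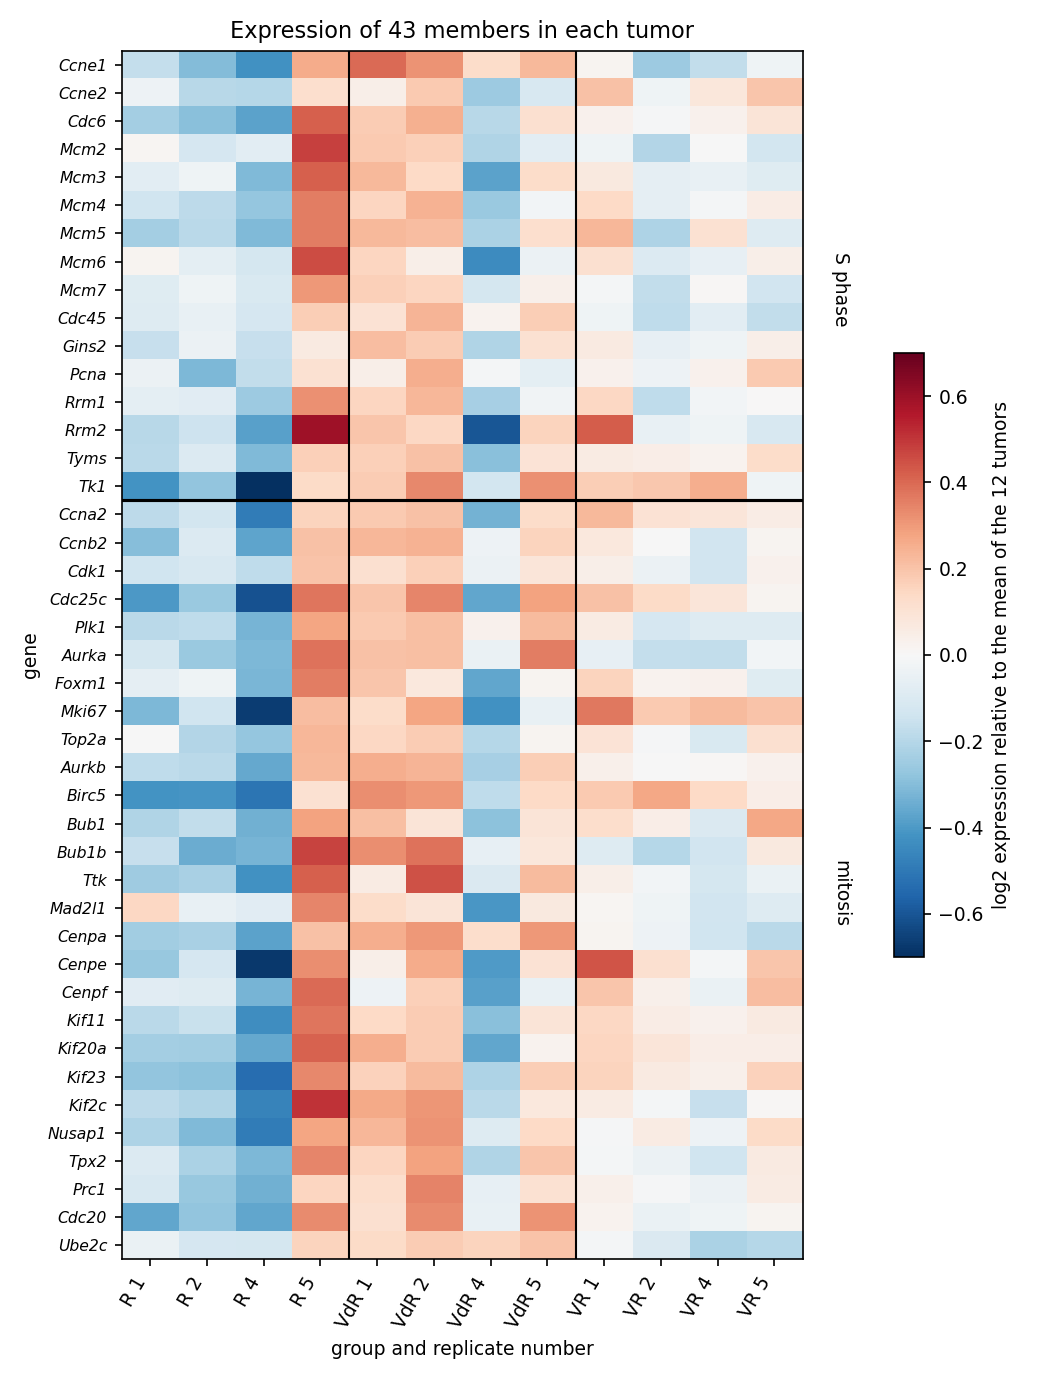
Log2 expression of the 43 measured members (rows) in the 12 tumors (columns, by group and replicate number), relative to the mean of each gene over the tumors; red is higher and blue lower, and the color scale ends at 0.7 on either side. The column of R replicate 5 is the highest of the R columns in all 43 rows, and that of VdR replicate 4 the lowest of the VdR columns in 41.

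Of the tumors left out in turn, R tumor 5 and VdR tumor 4 moved the counts of called members most. Without R tumor 5, 10 members rose in VR against R (2 of S phase, 8 of mitosis), where 13.9% of all genes did, and 19 in VdR against R (4 and 15), where 7.75% did. The medians over the members were then 0.25 and 0.31. Between VR and VdR, 4 members were then called lower in VR (Ccne1, Cdc45, Cenpa and Ube2c), as were 2.28% of all genes. Their differences did not change (-0.37, -0.25, -0.33 and -0.30). R tumor 5 enters that comparison only through the filter and the spread that the fit shares over the 3 groups. The SE of Ube2c, for example, was 0.069 with it and 0.055 without it. Without VdR tumor 4, 3 members were called higher in VR against R (14.1% of all genes) and 4 in VdR against R (5.87%). The VR minus R differences did not change, at 0.47 for Tk1 and for Mki67, since VdR tumor 4 is in neither of these groups. Between VR and VdR 0 members were then called, where 0.417% of all genes were higher and 0.616% lower in VR. The median VdR minus R difference was then 0.28, with 42 of 43 members above 0. The labels give no reason to leave any tumor out.

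No member separated R from either other group: 0 of 43 had all VR or all VdR tumors on one side of all R tumors. Of all genes, 15.3% lay wholly above and 10.5% wholly below R in VR tumors, and 9.73% and 4.50% in VdR tumors. R tumor 5 was the highest R tumor in all 43 members, so the counts above R all depend on it and are not separate observations. Between VR and VdR, 4 members (Ccne1, Cdc45, Cenpa and Ube2c) lay wholly below and 0 wholly above, against 6.77% and 5.88% of all genes. Macrophage markers moved with the difference of both groups from R, and a fit with the macrophage marker mean of each tumor as covariate called 0 members in each comparison. That fit called 64 genes of all those tested between VR and R and 47 between VdR and R. Every VR and VdR tumor had a higher macrophage marker mean than every R tumor, so in this fit macrophage level and group can hardly be told apart. In it the difference of Cenpa between VdR and R was -0.07 and that of Birc5 between VR and R 0.23 (adjusted p = 0.891).

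Other genes of the same processes were tested as well. Of 49 tested replication genes outside the set, 4 rose in VR against R, where 13.6% of all genes did. In the other comparisons 0 of them were called by limma, with 6 at an unadjusted p under 0.05 for VdR against R (23.1% of all genes) and 2 for VR against VdR (19.2%). The 4 were Orc3, a subunit of the origin recognition complex (log2 difference 0.36, adjusted p = 0.0013), Dck, deoxycytidine kinase (0.58, adjusted p = 0.00733), Gins3 of the GINS complex (0.35, adjusted p = 0.0189) and Cdc7, the kinase that fires origins (0.31, adjusted p = 0.0396). Of 59 tested mitosis genes, Spc24 of the outer kinetochore rose in both VR and VdR against R (0.35 and 0.41), where 13.6% and 6.58% of all genes rose. Zwint, another kinetochore gene, was lower in VR than in R and than in VdR (-0.34 and -0.37), and Cks1b, a partner of Cdk1, and Gtse1 were lower in VR than in VdR (-0.37 and -0.43), as were 1.67% of all genes. In the list of 24 recombination and Fanconi genes, Fancl rose (0.52) and Fance fell (-0.27) in VR against R, where 21.1% of all genes were called. In the other comparisons 0 of the 24 were called, with 2 at an unadjusted p under 0.05 in each (23.1% and 19.2% of all genes). These lists had median differences of 0.08, 0.07 and 0.15 in VR against R, beside the -0.01 of all genes. In VdR against R the medians were 0.11, 0.20 and 0.07, beside 0.00. A larger shift of mitosis than of replication genes was thus seen in VdR and not in VR.

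Among 30 tested genes that govern G1 or hold the cycle back, 3 rose and 1 fell in VR against R, where 21.1% of all genes were called. Cdkn2c, the inhibitor of Cdk4 and Cdk6 known as p18, rose from 8.76 to 9.51 on average (0.75, adjusted p = 0.00237). Rb1, the retinoblastoma protein, rose by 0.51 (adjusted p = 0.0054) and its relative Rbl2 by 0.22 (adjusted p = 0.0112), and E2f5, a repressing E2F, was lower (-0.27, adjusted p = 0.0484). In VdR against R, Ccnd3, a D-type cyclin, rose by 0.24, whereas E2f3 and the Cdk inhibitor Cdkn1b were lower (-0.33 and -0.28), a comparison in which 9.38% of all genes were called. None of the 30 was called between VR and VdR by limma, with 6 at an unadjusted p under 0.05, as were 19.2% of all genes. Cdkn2a, the p16 and p19 gene that the line lacks, read 7.80 to 8.06 in all tumors, and its probeset may lie outside the deleted part or read host cells, so it checks nothing.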

How the data were processed

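RNA of 12 tumors was hybridised to Affymetrix mouse gene arrays. The authors normalized all arrays with RMA in the oligo package, per the submitters' processing notes, and deposited log2 values per probeset; versions and batches are not given in the sources used here. RMA hides overall shifts in RNA content. The labels speak of RNA from sorted cells, the paper of whole tumor mass. Of 35556 probesets, 21789 name 1 gene in the platform annotation, 1621 several and 12146 none. The probeset with the highest mean stood for a gene, and genes above the 25th percentile (5.38) in at least 4 arrays were tested (limma 3.58.1, R 4.3.3, 1 coefficient per group, all 12 tumors). Simulated data for VR versus R held 16573 genes, 50 of them changed at each fold change. The test found 20 at 1.25-fold, 43 at 1.5-fold, 46 at 2-fold and all 50 at 3-fold. Of its 165 calls, 6 were false. Noise there was independent between genes and few genes changed, whereas 21.1% of genes were called between the real VR and R tumors. These figures therefore do not give the power or error rate of the real comparisons. Members, lists, motifs and tests were chosen with earlier results of these data known. Named were called members, the 5 largest changes per comparison, textbook markers, the most and least variable members and called genes of other lists. Alternatives were filters, probeset means, moderation, array weights, loess, centring, a replicate block, a macrophage covariate, only the groups compared, a 1.5-fold minimum, the methods' t-test and leaving out each tumor. The number of arrays limits the precision.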

Additional observations from a re-analysis of the deposited data

Results flagged for a closer look

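Of 60 groups of 4 tumors examined, 3 for each of the 17 named members and of the 3 scores, 5 held a tumor far from the other 3 by Dixon's criterion for 4 values, where chance gives about 1 in 20. In R tumors, replicate 5 stood apart in 3 mitosis genes: Birc5 was 8.82 there and 8.20 to 8.30 in the others, Cdc20 was 9.51 against 8.82 to 8.91, and Cdk1 was 11.71 against 11.33 to 11.40. Rrm2, of nucleotide supply, was low in VdR replicate 4 (9.49 against 10.23 to 10.28) and high in VR replicate 1 (10.51 against 9.97 to 10.06). The first 4 of these are the same tumors that were highest or lowest of their group in nearly all members, so they are not separate observations.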

How the results depend on the processing

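Numbers in 3s are for VR versus R, VdR versus R and VR versus VdR. With array weights, 8, 14 and 3 members were called (S phase 1, 3 and 1, mitosis 7, 11 and 2) and 5667, 2595 and 884 genes. With a 1.5-fold minimum, the methods' t-test or the macrophage covariate, 0 members were called, 0 of mitosis among them, in every comparison, with 967, 496 and 125 genes, 2120, 493 and 30 genes, and 64, 47 and 51 genes. The stricter filter called 2 and 3 members against R (S phase 1 and 1, mitosis 2 in VdR), trended and robust moderation 2 in VdR versus R (S phase 1), and cyclic loess 2 between VR and VdR (S phase 1). With only the groups compared, 0 members were called in VdR versus R (mitosis 0) and 3 between VR and VdR (S phase 1, mitosis 2). Centring on the array median called 5390 genes in VR versus R and 0 members in VdR versus R (mitosis 0). The causes were not tested.

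The replicate number as a block called 3, 2 and 1 members (S phase 1, 1 and 0, mitosis 2 in VR versus R), adding Mki67 and Tk1 in VR versus R and Ccne1 in VdR versus R. In the labels, tumors of 1 number share only that number. Their deviations correlated between -0.151 and 0.398 across genes, and not every tumor correlated best with its own number. All pairs of number 2 did so (0.356 for R and VdR, 0.398 for R and VR, 0.227 for VdR and VR). What the tumors of number 2 have in common was not tested.

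Leaving out single tumors gave 2455 to 3578, 961 to 1774 and 86 to 749 genes, 0 to 10, 0 to 19 and 0 to 4 members, 0 to 2, 0 to 4 and 0 to 2 of S phase, and 0 to 8, 0 to 15 and 0 to 2 of mitosis, the highest counts of members without R tumor 5. There the S phase score differed by 0.0002 to 0.1882, 0.0549 to 0.2429 and -0.1453 to -0.0059, the mitosis score by 0.0549 to 0.2824, 0.1207 to 0.3483 and -0.1582 to -0.0158, and mitosis minus S phase by 0.0496 to 0.0997, 0.0657 to 0.1054 and -0.0366 to 0.0136. The differences from R in both phase scores were smallest without R tumor 4 and largest without R tumor 5. After centring, the S phase score in VR versus R was -0.0165, against 0.0686 as deposited.

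Differences of single members changed sign, with the macrophage covariate also some of the larger ones and that of Cenpa, which was called in VdR versus R. The macrophage covariate turned Ccne1 (-0.14), Cdc25c (-0.067), Cenpe (-0.30), Mki67 (-0.11) and Tk1 (-0.0065) in VR versus R, Cdc20 (-0.02), Cenpa (-0.070), Mki67 (-0.52) and Tk1 (-0.094) in VdR versus R, and Pcna (0.001) between VR and VdR. Centring turned Ccne1 (-0.033) and Top2a (-0.0013) in VR versus R and Ccne2 (-0.030) in VdR versus R, cyclic loess Ccne2 (-0.0064) in VdR versus R and Pcna (0.0125) between VR and VdR, and array weights Pcna (0.011). With single tumors left out, ranges crossed 0 for Ccne1 in VR versus R (-0.036 to 0.19), Ccne2 (-0.032 to 0.12) and Mcm2 (-0.12 to 0.076) in VdR versus R, and Pcna (-0.046 to 0.065) and Top2a (-0.092 to 0.034) between VR and VdR.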
